A study of Mus musculus with 4 samples.

Results

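A set of 40 mouse genes of the cell cycle was followed in tumor associated macrophages (TAMs) of propranolol treated and control mice. The 40 genes were given as a list of symbols with no threshold on a measured value and were found by identifier among the 54146 genes of the count table with the GENCODE M21 annotation. They were split by the phase in which their products act, into 17 genes of the G1/S transition and S phase and 23 genes of G2 and mitosis. The TAMs came from subcutaneous MCA205 tumors, a transplantable mouse fibrosarcoma, grown in female C57BL/6 mice of 8 to 16 weeks with no engineered allele named. Treated mice were given propranolol, a blocker of beta-adrenergic receptors, at 0.5 g/L in the drinking water from the day of tumor inoculation, and the control group is labelled vehicle. CD45+ cells were enriched with magnetic beads, live CD11b+F4/80+ cells were sorted, and their poly-adenylated RNA was sequenced in 2 libraries per group, numbered as replicates 1 and 2. The labels do not say whether a replicate is 1 mouse or a pool, so p-values measure the spread between these libraries. The libraries held 13798249 and 23018142 counts in control replicates 1 and 2 and 39818103 and 16424081 counts in propranolol replicates 1 and 2.

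Cells enter the cycle when D-type and E-type cyclins with their kinases release E2F transcription factors, which switch on genes for DNA synthesis. Cdc6 and Cdt1 load the MCM helicase onto replication origins, Pcna clamps the polymerases to DNA, and ribonucleotide reductase supplies deoxynucleotides. Genes of mitosis come up later, when cyclin B and Cdk1, Polo-like and Aurora kinases, the spindle, the kinetochores and the anaphase-promoting complex divide the chromosomes. Tissue macrophages are known to divide locally as well as to arise from blood monocytes. In bulk RNA, fewer cycling cells and less of a transcript in each cycling cell cannot be told apart.

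The sorted cells carried the RNA of macrophages. Itgam, which encodes CD11b, was at 358 and 351 CPM in the controls and 369 and 312 CPM after propranolol, where CPM is the count scaled to the TMM-normalized size of the library and not divided by gene length. Adgre1, which encodes F4/80, was at 974 and 1006 CPM in the controls and 1150 and 1099 CPM after propranolol. Lyz2, the lysozyme of myeloid cells, had the highest CPM of the 12 sort and macrophage markers, between 5217 and 7561 CPM. Ptprc, which encodes CD45, was at 752 and 779 CPM in the controls and 479 and 442 CPM after propranolol, and Csf1r, the receptor for the macrophage growth factor, was between 2460 and 3976 CPM. Of these 12 markers Csf1r rose and Ptprc fell, by log2 fold changes of 0.59 and -0.74, where the edgeR test over all genes called 12.2% higher and 15.6% lower. Both calls were lost in a fit with the GC trend of each library removed, in which only Mrc1 of the 12 rose and 0 fell, where 7.86% and 4.91% of all tested genes did. Beside these levels, the cell cycle genes were a small part of the RNA. Their counts made up 0.393% and 0.407% of all counts in the controls and 0.404% and 0.383% after propranolol, so that the groups overlapped in this share of raw counts. In TMM-normalized CPM, the scale of the other values, they summed to 3652 and 3724 CPM in the controls and 4421 and 4119 CPM after propranolol, without overlap.

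**Figure D1:**
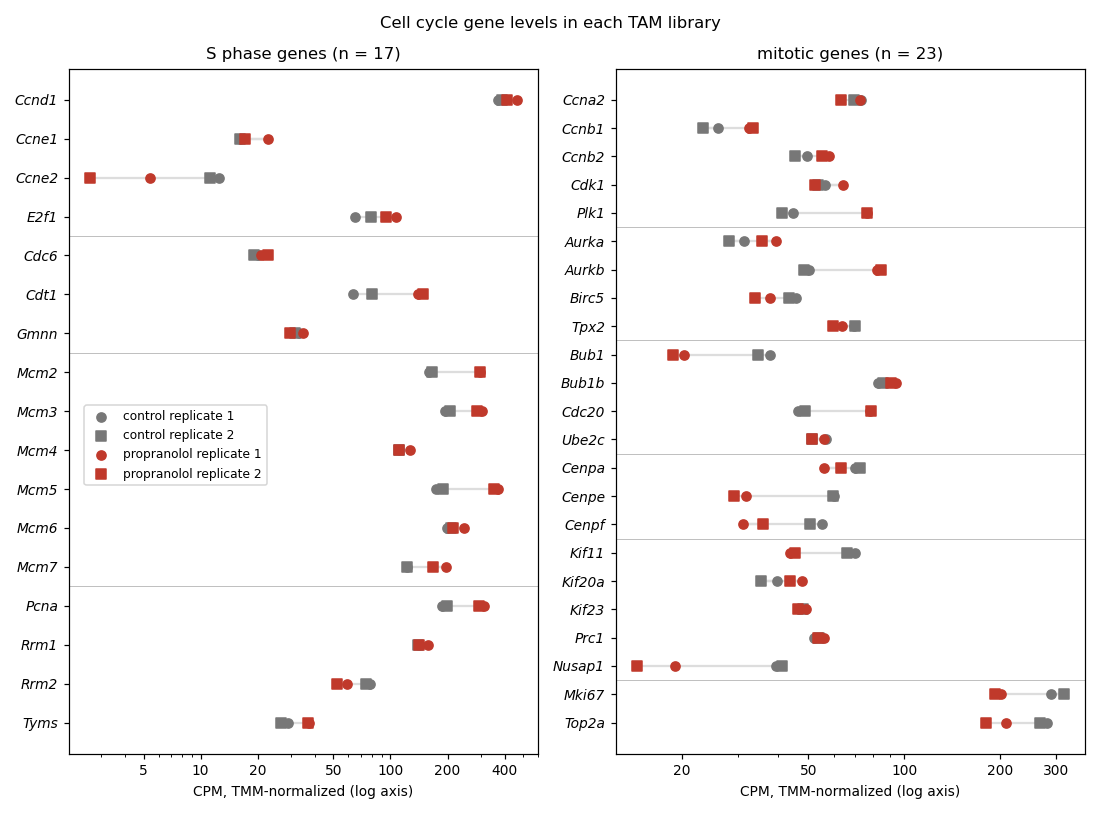
Level of each of the 40 cell cycle genes in CPM (log axis) in the 4 libraries, gray for control and red for propranolol, circles for replicate 1 and squares for replicate 2, with lines between role groups. The propranolol libraries lie to the right of both control libraries for Mcm2, Mcm5, Cdt1, Pcna, Plk1, Aurkb and Cdc20, and to the left for Ccne2, Nusap1, Cenpe, Bub1, Cenpf, Kif11 and Mki67.

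All 40 genes passed the filter on low counts and were tested among 14688 genes by the edgeR quasi-likelihood test. A gene was called changed at a Benjamini-Hochberg adjusted p under 0.05 and a change over 1.5-fold. Propranolol treated TAMs had 7 of the 40 genes called higher and 7 called lower, where 27.8% of all tested genes were called, 12.2% higher and 15.6% lower. By adjusted p alone, without the fold threshold, 10 S phase and 11 mitotic genes passed, where 42.2% of all tested genes did, 21.8% higher and 20.4% lower. Among the 17 S phase genes, Cdt1, Mcm5, Mcm2 and Pcna rose and Ccne2 fell, 15 had a log2 fold change above 0, and the median was 0.31. Among the 23 mitotic genes, Plk1, Aurkb and Cdc20 rose, Nusap1, Cenpe, Bub1, Cenpf, Mki67 and Kif11 fell, and the median was -0.0079. The median of all tested genes was -0.019. With 1 library left out of the fit, the S phase median ran from 0.22 to 0.47 and the mitotic median from -0.067 to 0.079. With 2 libraries per group, a two-sided exact permutation test cannot give a p below 0.333, so that the calls rest on the spread that edgeR shares between genes.

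The libraries of the groups overlapped for 7 of the 40 genes, and 21 genes were higher and 12 lower in both propranolol libraries, beside 72.6% of all tested genes without overlap. Of the S phase genes, 13 were higher in both propranolol libraries than in both control libraries, 2 were lower, and 2 overlapped. Of the mitotic genes, 8 were higher, 10 were lower, and 5 overlapped. Over all tested genes, 35.8% were higher in both propranolol libraries and 36.8% were lower in both.

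The summed level of the S phase genes was 1976 and 2068 CPM in the controls and 2899 and 2677 CPM after propranolol. For the mitotic genes, the sum was 1676 and 1656 CPM in the controls and 1522 and 1441 CPM after propranolol. The propranolol libraries lay above both controls for the S phase sum and below both for the mitotic sum. In CPM, the lower mitotic sum rested on Mki67 and Top2a, which together were at 571 and 585 CPM in the controls and 412 and 375 CPM after propranolol. The other 21 mitotic genes summed to 1104 and 1071 CPM in the controls and 1110 and 1067 CPM after propranolol, so that the groups overlapped. The ratio of the S phase sum to the mitotic sum was 1.18 and 1.25 in the controls and 1.905 and 1.857 after propranolol. With Mki67 and Top2a left out of the mitotic sum, it was 1.79 and 1.93 in the controls and 2.61 and 2.51 after propranolol. This ratio is taken within a library and does not depend on how libraries are scaled to each other. It was not computed with the GC trend removed and can carry that trend. The median GC content was 49.8% for the S phase genes and 47.4% for the mitotic genes. In TPM, where counts are divided by exon length before they are scaled, the ratio was 1.45 and 1.56 in the controls and 2.02 and 1.96 after propranolol, and the sum of those 21 mitotic genes was 930 and 922 TPM in the controls and 882 and 881 TPM after propranolol, lower without overlap on this scale. Per length, the highest of the 40 genes in control TAMs were Ccnd1 and Pcna, with mean levels of 268 and 267 TPM, and the lowest were Cenpf and Ccne2, with 11.4 and 11.3 TPM.

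Fold changes followed the GC content of the transcripts, in these genes as over all tested genes. When all tested genes were ordered by the GC content of their longest transcript and cut into 10 bins of equal size, the median log2 fold change was -0.94 in the lowest bin, where 60.2% of genes were called lower, and 0.46 in the highest, where 32.8% were called higher. Spearman's correlation of log2 fold change with GC content was 0.58 over all tested genes and 0.74 over the 40 cell cycle genes. Genes are not independent replicates, and all fold changes share the same 4 libraries. Of the 10 cell cycle genes under 45% GC, none rose and 6 fell, namely Ccne2, Bub1, Nusap1, Kif11, Cenpe and Cenpf. Their median log2 fold change was -0.64. Of all tested genes in bins 1, 2 and 3, up to 45.8% GC, 60.2%, 36.1% and 18.3% were called lower. In those bins 0.204%, 0.954% and 2.45% were called higher. The 16 genes of 45 to 50% GC had a median of 0.053, with Pcna higher and Mki67 lower. In bins 4 and 5, from 45.8% to 49.6% GC, 11.9% and 7.90% of all tested genes were called lower. In these 3.27% and 5.72% were called higher. The 14 genes of 50% GC or more had a median of 0.56, and Mcm2, Mcm5, Aurkb, Cdc20, Plk1 and Cdt1 rose while none fell. In bins 6 to 10, from 49.6% GC up, 9.40%, 15.8%, 21.5%, 30.3% and 32.8% of all tested genes were called higher. Between 3.13% and 5.18% were called lower in each of these bins.

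**Figure D2:**
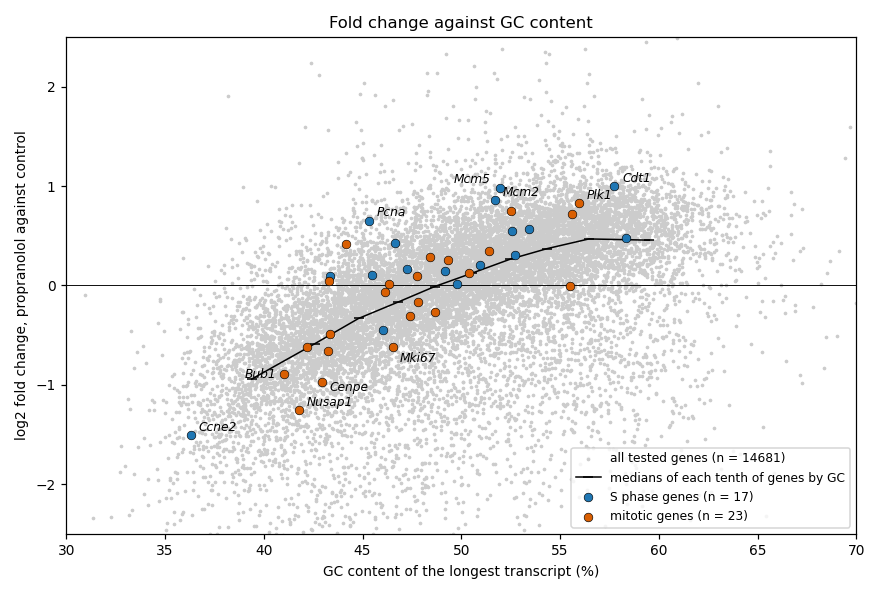
Log2 fold change of propranolol against control (vertical axis) and GC content in percent of the longest transcript (horizontal axis) for all tested genes with an annotation (gray, of which 179 lie outside the axes), the 17 S phase genes (blue) and the 23 mitotic genes (orange), with the medians of 10 bins of genes by GC content as a line. Nusap1 lies low on both axes and below the line. Ccne2 lies lower on both axes, at 36.3% GC, to the left of where the line starts at 39.4%. Cdt1 and Plk1 lie high on both axes and above the line, and Pcna, Mcm5 and Mcm2 also lie above it, at lower GC content.

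The fit was therefore repeated with the GC trend of each library removed, which moved the median of all tested genes from -0.019 to 0.0945 and called 12.8% of them, 7.86% higher and 4.91% lower. In this fit 6 S phase genes rose and 0 fell, and the S phase median was 0.38. Cdt1, Mcm2, Mcm5 and Pcna were called in both fits, Rrm1 and Tyms were called only with the trend removed, and Ccne2 was no longer called, at -0.16. Of the mitotic genes, Aurkb and Ccnb1 rose, Nusap1 fell, and the median was 0.11. Aurkb and Nusap1 were called in both fits, at 0.76 and -1.26 without the correction and 0.59 and -0.59 with it. Bub1, Cenpe, Cenpf, Kif11, Mki67, Plk1 and Cdc20 were called only without the correction. The medians of both phases lay above that of all tested genes in both of these fits, that of the mitotic genes only slightly. Most calls of mitotic genes were lost with the trend removed. What gave the libraries their GC trend was not tested.

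**Figure D3:**
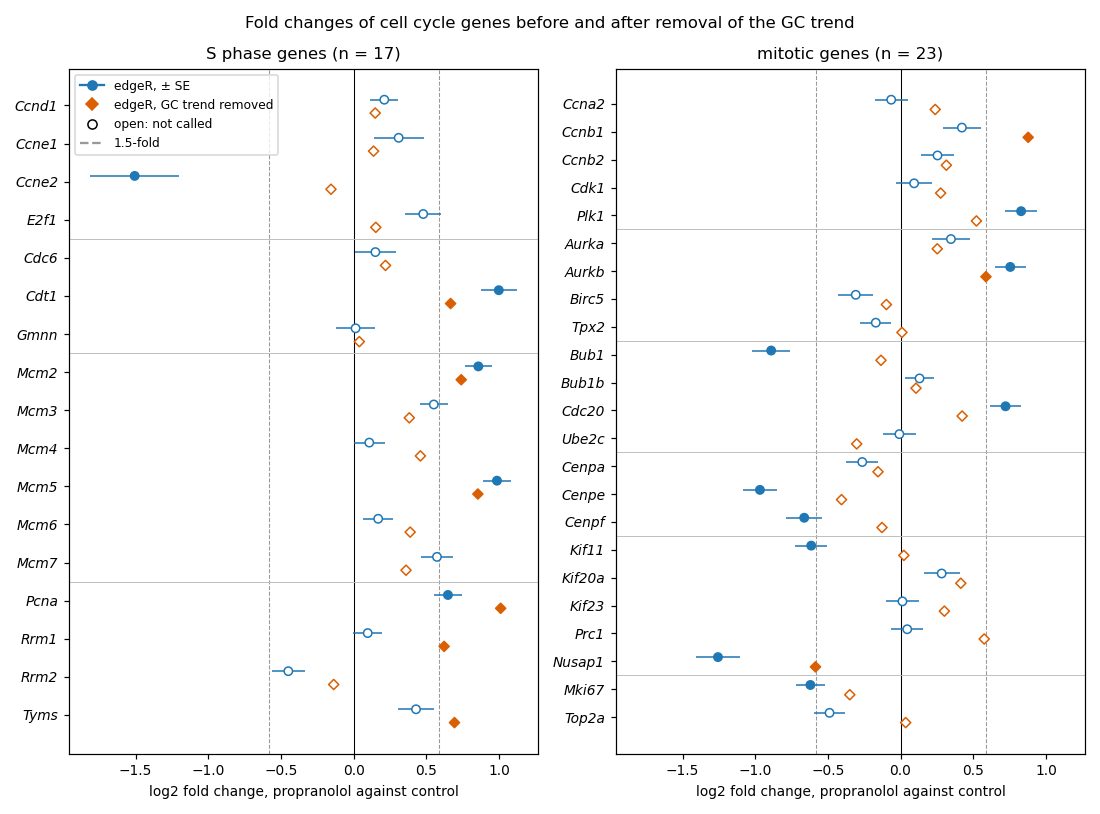
Log2 fold change of each cell cycle gene by edgeR (blue circles, bars are the standard error) and by edgeR with the GC trend removed (orange diamonds), filled where the gene was called and open where it was not, with dashed lines at 1.5-fold. Mcm2, Mcm5, Cdt1, Pcna and Aurkb are filled on the right in both fits and Nusap1 on the left, while the orange diamonds of Ccne2, Bub1 and Kif11 lie near 0.

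The MCM proteins form the ring-shaped helicase that unwinds DNA at the replication fork, and all 6 subunits had a log2 fold change above 0. Mcm5 (ENSMUSG00000005410.6, chr8:75109569-75128439 on GRCm38) was at 175 and 189 CPM in the controls and 371 and 351 CPM after propranolol. Both propranolol libraries lay far above both controls, with a log2 fold change of 0.99 ± 0.098 (SE, edgeR, adjusted p = 0.000125). Mcm2 (ENSMUSG00000002870.8, chr6:88883474-88898780) was at 160 and 166 CPM in the controls and 297 and 295 CPM after propranolol. The replicates of Mcm2 lay close together and the groups far apart, with a log2 fold change of 0.86 ± 0.093 (edgeR, adjusted p = 0.000172). Mcm3 was at 193 and 207 CPM in the controls and 303 and 284 CPM after propranolol, without overlap, and its log2 fold change of 0.55 ± 0.097 (edgeR, adjusted p = 0.00155) was under 1.5-fold. It was over 1.5-fold without control replicate 2, at 0.62, without propranolol replicate 2, at 0.63, and without the filter on low counts, at 0.62. Mcm7 was close to it, with a log2 fold change of 0.57 ± 0.11 (edgeR, adjusted p = 0.00223). It was over 1.5-fold without control replicate 1, at 0.63, control replicate 2, at 0.59, propranolol replicate 2, at 0.72, or the filter, at 0.65. Mcm4 and Mcm6 had log2 fold changes of 0.11 and 0.17 and did not pass the test. Mcm4 and Mcm6 had the lowest GC content of the 6, at 45.5% and 47.3%, and with the GC trend removed their log2 fold changes were 0.46 and 0.39, beside 0.38 for Mcm3, 0.36 for Mcm7, 0.85 for Mcm5 and 0.74 for Mcm2. In that fit Mcm7 did not pass the test (edgeR, adjusted p = 0.05004). The summed MCM level was 960 and 1005 CPM in the controls and 1540 and 1423 CPM after propranolol.

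Of the licensing genes, Cdt1 had the highest log2 fold change of the 40. Cdt1 (ENSMUSG00000006585.3, chr8:122568015-122573554), which brings the helicase to the origin, was at 63.6 and 80.4 CPM in the controls and 140 and 148 CPM after propranolol. Both propranolol libraries lay well above the higher control, and the log2 fold change was 0.999 ± 0.12 (edgeR, adjusted p = 0.000296), or 0.67 with the GC trend removed. Gmnn encodes geminin, the inhibitor of Cdt1. It was at 32.8 and 31.2 CPM in the controls and 34.8 and 29.6 CPM after propranolol, where the groups overlapped, with a log2 fold change of 0.013 ± 0.13 (edgeR, adjusted p = 0.945). Cdc6, the partner of Cdt1 in loading, ranged from 19.2 to 22.8 CPM over the 4 libraries and did not pass the test.

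Among the genes of replication and nucleotide supply, the sliding clamp stood out. Pcna (ENSMUSG00000027342.14, chr2:132249162-132253314) was at 187 and 198 CPM in the controls and 310 and 295 CPM after propranolol. The groups were separate, with a log2 fold change of 0.65 ± 0.096 (edgeR, adjusted p = 0.000639). Its transcript has a GC content of 45.3%, and with the GC trend removed its log2 fold change was 1.01, the highest of the 40 genes. Rrm1, the large subunit of ribonucleotide reductase, was at 141 and 140 CPM in the controls and 158 and 142 CPM after propranolol. Its groups barely separated, with a log2 fold change of 0.097 ± 0.10 (edgeR, adjusted p = 0.468), and with the GC trend removed it was called higher at 0.62. Rrm2, the small subunit of the same enzyme, had a log2 fold change of -0.45 ± 0.11 (edgeR, adjusted p = 0.0096), under 1.5-fold, and was lower in both propranolol libraries. Tyms, thymidylate synthase, had a log2 fold change of 0.43 ± 0.12 (edgeR, adjusted p = 0.0186) and was called with the GC trend removed, at 0.69. With the GC trend removed, the log2 fold change of Rrm2 was -0.14 and did not pass the test (edgeR, adjusted p = 0.419).

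The G1/S regulators were mixed. Ccnd1, cyclin D1, was at 371 and 387 CPM in the controls and 464 and 414 CPM after propranolol. It was higher in both propranolol libraries by less than 1.5-fold, with a log2 fold change of 0.21 ± 0.098 that did not pass the test. Of its exon bases, 23.4% overlap the gene LTO1 on the opposite strand, and the counting was given no strand option. Fragments in that overlap could therefore not be assigned to 1 of the 2 genes by strand, and their effect on the count was not tested. E2f1, an activating E2F factor, was at 65.1 and 78.9 CPM in the controls and 107 and 94.4 CPM after propranolol. It did not overlap between groups, and its log2 fold change of 0.48 ± 0.12 (edgeR, adjusted p = 0.0111) was under 1.5-fold, reaching 0.64 without control replicate 2 and 0.59 without propranolol replicate 2. E2f1 has the highest GC content of the 40, 58.3%, and with the GC trend removed its log2 fold change was 0.15 and did not pass the test (edgeR, adjusted p = 0.458). Ccne2 (ENSMUSG00000028212.16, chr4:11191351-11204779), cyclin E2, was at 12.5 and 11.2 CPM in the controls and 5.41 and 2.62 CPM after propranolol. It had the lowest log2 fold change of the 40 genes, -1.51 ± 0.31 (edgeR, adjusted p = 0.00335). The level of Ccne2 was low and its propranolol replicates differed from each other. Without propranolol replicate 1 the log2 fold change was -2.17, and without propranolol replicate 2 it was -1.10. Its transcript also has the lowest GC content of the 40, 36.3%, and with the GC trend removed its log2 fold change was -0.16. A share of 17.4% of its exon bases overlaps Ints8 on the opposite strand. Ccne1, the other E-type cyclin, had a log2 fold change of 0.31 and did not pass the test.

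Chromosome structure genes are the usual marks of dividing cells. Mki67 (ENSMUSG00000031004.8, chr7:135689784-135716361), the gene of the Ki67 antigen, was at 290 and 318 CPM in the controls and 202 and 194 CPM after propranolol. The groups were well apart, and the log2 fold change was -0.62 ± 0.098 (edgeR, adjusted p = 0.000891). Mki67 stood near the 1.5-fold threshold and was under it without control replicate 2, at -0.53, without propranolol replicate 2, at -0.56, without the filter on low counts, at -0.55, and with the GC trend removed, at -0.35. Top2a, the topoisomerase that untangles chromosomes, was at 282 and 267 CPM in the controls and 210 and 181 CPM after propranolol. It too was lower in both propranolol libraries, with a log2 fold change of -0.49 ± 0.11 (edgeR, adjusted p = 0.00446) that was under 1.5-fold. Without propranolol replicate 1 it was past that threshold, at -0.60, and with the GC trend removed its log2 fold change was 0.035.

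Of the mitotic kinases, Plk1 and Aurkb rose, as did the anaphase activator Cdc20, and Bub1 fell. Plk1 (ENSMUSG00000030867.7, chr7:122159439-122169873), the Polo-like kinase of mitotic entry, was at 44.8 and 41.3 CPM in the controls and 76.7 and 76.2 CPM after propranolol. The replicates were nearly equal within each group, and the log2 fold change was 0.83 ± 0.11 (edgeR, adjusted p = 0.000378), or 0.52 and under 1.5-fold with the GC trend removed. Aurkb (ENSMUSG00000020897.12, chr11:69045647-69051664), the kinase that corrects attachment of chromosomes to the spindle, was at 50.2 and 48.6 CPM in the controls and 82.2 and 84.6 CPM after propranolol. Its groups were as clearly separate, with a log2 fold change of 0.76 ± 0.10 (edgeR, adjusted p = 0.000487). Cdc20 (ENSMUSG00000006398.15, chr4:118432901-118437352), which activates the anaphase-promoting complex, was at 46.3 and 48.7 CPM in the controls and 78.1 and 78.8 CPM after propranolol. It rose by a log2 fold change of 0.72 ± 0.11 (edgeR, adjusted p = 0.000639), which was 0.42 and under 1.5-fold with the GC trend removed. These 3 genes have a GC content of 56.0%, 52.5% and 55.6%.

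None of the mitotic cyclins, Cdk1, Aurka, Tpx2 and Birc5 was called, and of these Ccnb1 alone passed the adjusted p. Ccna2, cyclin A2, was at 73.3 and 69.4 CPM in the controls and 72.9 and 63.3 CPM after propranolol, so that the groups overlapped. Tpx2, which activates Aurora A at the spindle, was at 69.5 and 69.9 CPM in the controls and 63.9 and 59.9 CPM after propranolol. It was a little lower in both, with a log2 fold change of -0.17 ± 0.11 (edgeR, adjusted p = 0.221). Cdk1 had a log2 fold change of 0.093, Ccnb2 0.25, Aurka 0.35 and Birc5, which encodes survivin, -0.31. Ccnb1, cyclin B1, had a log2 fold change of 0.42 ± 0.13 (edgeR, adjusted p = 0.0245), under 1.5-fold, and was called with the GC trend removed, at 0.88.

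The checkpoint kinases Bub1 and Bub1b hold anaphase until chromosomes are attached, and their RNAs had log2 fold changes of opposite sign. Bub1b was at 83.0 and 86.0 CPM in the controls and 94.1 and 91.1 CPM after propranolol. It was slightly higher in both, with a log2 fold change of 0.13 ± 0.10 (edgeR, adjusted p = 0.324). Bub1 (ENSMUSG00000027379.13, chr2:127801122-127831865) was at 38.0 and 34.6 CPM in the controls and 20.3 and 18.7 CPM after propranolol. It fell in both without overlap, with a log2 fold change of -0.89 ± 0.13 (edgeR, adjusted p = 0.000669). Bub1b has a GC content of 50.4% and Bub1 one of 41.0%, and with the GC trend removed their log2 fold changes were 0.11 and -0.13, neither of them called. Ube2c, the ubiquitin-conjugating enzyme of the anaphase-promoting complex, had a log2 fold change of -0.0079, and 22.8% of its exon bases overlap Tnnc2 on the opposite strand.

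Kinetochore and spindle genes held most of the mitotic decreases. Cenpe (ENSMUSG00000045328.11, chr3:135212537-135273611), the kinesin of the kinetochore, was at 60.1 and 59.6 CPM in the controls and 31.8 and 29.2 CPM after propranolol. Replicates were close and the groups far apart, with a log2 fold change of -0.97 ± 0.12 (edgeR, adjusted p = 0.000245), which was -0.41 and under 1.5-fold with the GC trend removed. Cenpf (ENSMUSG00000026605.14, chr1:189640606-189688086), a large protein of the outer kinetochore, was at 55.1 and 50.8 CPM in the controls and 31.2 and 35.9 CPM after propranolol. The groups did not overlap, and the log2 fold change was -0.66 ± 0.12 (edgeR, adjusted p = 0.00223). It was under 1.5-fold without control replicate 1, at -0.55, and without propranolol replicate 1, at -0.56, and with the GC trend removed, at -0.13. Cenpa, the histone H3 variant of centromeres, was at 70.2 and 72.5 CPM in the controls and 56.0 and 63.3 CPM after propranolol. It was lower in both, and its log2 fold change of -0.26 ± 0.11 (edgeR, adjusted p = 0.0814) did not pass the test.

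Nusap1 (ENSMUSG00000027306.15, chr2:119618298-119651244), which bundles spindle microtubules, was at 39.5 and 41.2 CPM in the controls and 19.0 and 14.5 CPM after propranolol. It had the lowest log2 fold change of the mitotic genes, -1.26 ± 0.15 (edgeR, adjusted p = 0.000269), and was the only one of the 7 lower genes still called with the GC trend removed. Kif11 (ENSMUSG00000012443.3, chr19:37376403-37421859), the motor that pushes spindle poles apart, was at 70.2 and 66.1 CPM in the controls and 43.7 and 45.3 CPM after propranolol. The groups did not overlap, and the log2 fold change was -0.61 ± 0.11 (edgeR, adjusted p = 0.00165). It was under 1.5-fold without control replicate 1, at -0.52, without the filter on low counts, at -0.54, and just so without propranolol replicate 1, at -0.58, and its log2 fold change was 0.023 with the GC trend removed. Prc1, which bundles microtubules of the central spindle, was at 52.0 and 53.8 CPM in the controls and 55.8 and 53.5 CPM after propranolol. Its groups overlapped, as did those of Kif23, a motor of the same structure. With the GC trend removed, the log2 fold change of Prc1 moved from 0.046 to 0.58 (edgeR, adjusted p = 0.00529), under 1.5-fold, and that of Kif23 from 0.013 to 0.30. The kinesin Kif20a had a log2 fold change of 0.28 and did not pass the test, and 29.3% of its exon bases overlap Cdc23 on the opposite strand.

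Promoters were searched for the letters of known elements, which the list of symbols did not use. The shares of genes with a match were counted and not tested against each other. The RefSeq windows of GRCm38.p6 from 250 bases before to 50 bases after the transcription start were matched to 32 of the 40 genes, and Ccnd1, Tpx2, Mcm4, Gmnn, Ccna2, Kif20a, Ccne2 and Aurkb had none in the table used. The cell cycle homology region, searched as TTTGAA on either strand, is an element known from genes of G2 and mitosis. It was found in 14 of 19 mitotic genes (73.7%) and 1 of 13 S phase genes (7.69%), and in 20.2% of all 27025 genes with a window. An E2F element, searched as GCGGGAA on either strand, was found in 5 of 13 S phase genes (38.5%), 0 of 19 mitotic genes and 5.29% of all genes. The CCAAT box, searched as CCAAT on either strand, was found in 17 of 19 mitotic genes, 8 of 13 S phase genes and 41.1% of all genes. The stretches below are shown since they carry these letters in genes that fell (Mki67, Kif11), rose (Mcm2) or were not called (Cdk1, Mcm7, Rrm1), with the match in capitals and read 5′ to 3′ on the strand of the gene. They lie at chr7:135716455-135716530 (minus strand) for Mki67, chr19:37376328-37376381 (plus strand) for Kif11, chr10:69352943-69353018 (minus strand) for Cdk1, chr6:88898810-88898885 (minus strand) for Mcm2, chr5:138171338-138171414 (minus strand) for Mcm7 and chr7:102441593-102441669 (plus strand) for Rrm1.
Mki67: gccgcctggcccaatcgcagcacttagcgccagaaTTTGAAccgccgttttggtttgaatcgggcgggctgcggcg
Kif11: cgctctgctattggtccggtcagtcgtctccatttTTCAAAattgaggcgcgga
Cdk1: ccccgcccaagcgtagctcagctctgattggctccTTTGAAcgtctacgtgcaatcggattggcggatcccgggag
Mcm2: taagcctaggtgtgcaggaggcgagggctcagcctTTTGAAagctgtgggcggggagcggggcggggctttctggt
Mcm7: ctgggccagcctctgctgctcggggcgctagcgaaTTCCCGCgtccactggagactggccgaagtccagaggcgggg
Rrm1: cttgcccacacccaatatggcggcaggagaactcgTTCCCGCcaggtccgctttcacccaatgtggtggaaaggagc
The first 4 stretches hold the cell cycle homology region, as its reverse complement TTCAAA in Kif11, and the last 2 hold the E2F element as its reverse complement TTCCCGC. The stretch of Mki67 holds a further copy of TTTGAA, printed in lower case. The stretch of Mcm7 lies inside the annotated gene. A further window of Mcm7, nearer the annotated start of the gene and not printed, holds GCGGGAA 165 bases before its own start. A match is a description of letters and not a site of binding. Of the mitotic genes with a window, the cell cycle homology region was found in 2 of 2 that rose (Plk1 and Cdc20), in 3 of 6 that fell (Cenpf, Kif11 and Mki67, but not Bub1, Cenpe and Nusap1) and in 9 of 11 that were not called. Of the S phase genes that rose, Cdt1 holds the letters searched for E2F, and Pcna, Mcm2 and Mcm5 do not. Only these exact letters were searched for each element, so the lack of a match does not show that an element is absent.

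Other genes of the cycle were listed by hand to set the 40 in context. Of 38 other S phase genes, 7 rose (18.4%) and 2 fell (5.26%), where 12.2% of all tested genes were called higher and 15.6% lower. Their median log2 fold change was 0.13. Dnmt1, the maintenance DNA methyltransferase, had the highest CPM, at 240 and 256 CPM in the controls and 341 and 363 CPM after propranolol, with a log2 fold change of 0.51 under 1.5-fold. Uhrf1, its partner at newly copied DNA, was next, at 145 and 149 CPM in the controls and 281 and 262 CPM after propranolol, and rose by 0.88 on the log2 scale. Pold1, the catalytic subunit of DNA polymerase delta, rose by 0.91. Pola1 and Prim1, subunits of the polymerase that primes new strands, fell by 0.88 and 0.67. With the GC trend removed, 4 of the 38 genes rose (Cdc45, Pold1, Rfc3 and Uhrf1) and 0 fell, where 7.86% and 4.91% of all tested genes did, and the median was 0.29.

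Of 61 other mitotic genes, 6 rose (9.84%) and 16 fell (26.2%), beside the same 12.2% and 15.6% of all tested genes, with a median log2 fold change of -0.084. The highest in CPM were Ncapd2, a condensin subunit, and Incenp, the scaffold of Aurkb, with log2 fold changes of 0.55 and 0.36, both under 1.5-fold. Mybl2, the transcription factor of late cell cycle genes, rose by 0.94 and the kinesin Kifc1 by 0.89. Depdc1a fell by 1.95 at 3.50 and 3.46 CPM in the controls and 0.879 and 0.916 CPM after propranolol. Knl1, the kinetochore scaffold that holds Bub1, fell by 1.52. With the GC trend removed, 6 of the 61 genes rose and 0 fell, where 7.86% and 4.91% of all tested genes did. The median was 0.20, beside 0.0945 for all tested genes. None of the 16 decreases was still called, and Ncapg, a condensin subunit, turned from a called log2 fold change of -0.70 to one of 0.85.

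Of 18 inhibitors of the cycle, 7 fell and 3 rose, where 15.6% of all tested genes were called lower and 12.2% higher, with a median log2 fold change of -0.50. Btg1, an antiproliferative factor of resting cells, had the highest CPM, at 301 and 277 CPM in the controls and 182 and 176 CPM after propranolol, and fell by 0.69. Cdkn1b, which encodes p27, was at 82.2 and 73.3 CPM in the controls and 29.0 and 24.3 CPM after propranolol, and fell by 1.53. Its relative Cdkn1c, which encodes p57, fell by 1.55 at 6.73 and 2.86 CPM in the controls and 1.65 and 1.57 CPM after propranolol. Cdkn1a, which encodes p21, went the other way, at 149 and 158 CPM in the controls and 270 and 253 CPM after propranolol, and rose by 0.77. Gadd45b, a stress response gene, rose by 0.91. With the GC trend removed, 3 of the 18 fell and 2 rose, beside 4.91% and 7.86% of all tested genes. In this fit Cdkn1b, Cdkn1c and Cdkn2a fell and Gadd45a and Gadd45b rose, while Cdkn1a had a log2 fold change of 0.51 under 1.5-fold. Of 16 G1 cyclins, kinases and E2F factors, E2f4 rose by 0.76 and E2f5 fell by 1.09, and neither was called with the GC trend removed. Ccnd2 and Cdk4, the highest in CPM of these 16, had log2 fold changes of -0.13 and 0.27 and did not pass the test.

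**Figure D4:**
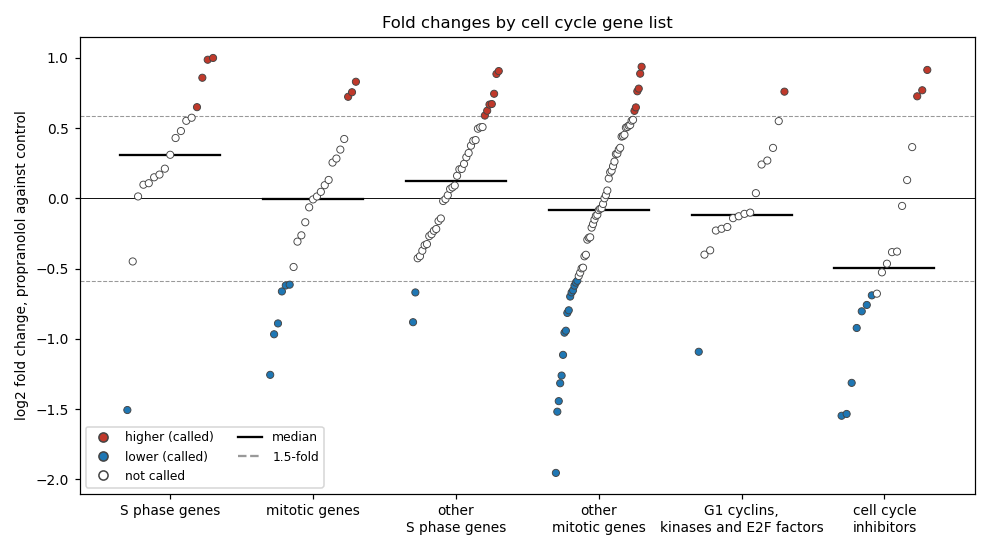
Log2 fold change of propranolol against control for each gene of the 6 cell cycle lists, ordered by value within a list, red where called higher, blue where called lower and open where not called, with bars at the medians and dashed lines at 1.5-fold. The medians run from 0.31 for the 17 S phase genes to -0.50 for the 18 inhibitors, and each list holds called genes of both directions.

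Markers of other cell types moved with the treatment. CD45 enrichment and the CD11b+F4/80+ gate select against CD45-negative cells such as fibroblasts, tumor cells and endothelium and against lymphocytes. The gate also selects against F4/80-negative cells such as neutrophils, and the authors gated GR1+ suppressor cells as F4/80-negative. Over all tested genes, 12.2% were called higher and 15.6% lower, or 7.86% and 4.91% with the GC trend removed. Of 15 T cell markers, 12 fell and 0 rose, and their summed level was 318 and 364 CPM in the controls and 171 and 100 CPM after propranolol. Cd8a had the highest CPM of them, at 70.9 and 86.6 CPM in the controls and 29.4 and 13.3 CPM after propranolol. All 11 NK cell markers fell, with sums of 296 and 306 CPM in the controls and 125 and 67.0 CPM after propranolol. Gzmb, a granule protease, had the highest CPM of them, at 106 and 104 CPM in the controls and 52.9 and 26.6 CPM after propranolol. T and NK cell markers were thus lower in both propranolol libraries, and lowest in propranolol replicate 2. Of 15 fibroblast and fibrosarcoma markers, 13 fell, with sums of 3932 and 1494 CPM in the controls and 864 and 906 CPM after propranolol. Control replicate 1 stood apart in this list, in which Col3a1 had the highest CPM, with 1292 CPM there and 423 CPM in control replicate 2. Neutrophil markers went up, with 6 of the 7 tested called higher and sums of 194 and 213 CPM in the controls and 421 and 471 CPM after propranolol. Csf3r had the highest CPM of these, at 96.8 and 129 CPM in the controls and 154 and 179 CPM after propranolol. Ly6g, a defining neutrophil marker, was under the filter on low counts, with 0 and 2 counts in the controls and 17 and 8 counts after propranolol. Of 5 monocyte markers 2 rose and 0 fell, and their sum was 590 and 521 CPM in the controls and 551 and 447 CPM after propranolol. Ccr2 had the highest CPM of them and was lower in both propranolol libraries, at 453 and 397 CPM in the controls and 306 and 262 CPM after propranolol. Of 7 dendritic cell markers 0 rose and 3 fell, with Ccr7 the highest at 6.13 to 8.15 CPM. Of 4 tested B cell markers 1 rose and 1 fell, with Ighm the highest at 149 to 176 CPM, and the B cell sum was 159 and 184 CPM in the controls and 185 and 198 CPM after propranolol. Of 6 tested endothelial markers 1 rose, with Pecam1 the highest at 32.05 to 40.6 CPM. With the GC trend removed, 11 T cell, 8 NK cell and 12 fibroblast and fibrosarcoma markers fell, 6 neutrophil and 3 monocyte markers rose, no dendritic or endothelial marker was called, and of the B cell markers Jchain alone was called, higher. Several of these cell types can divide, and their part in the cell cycle values was not tested.

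**Figure D5:**
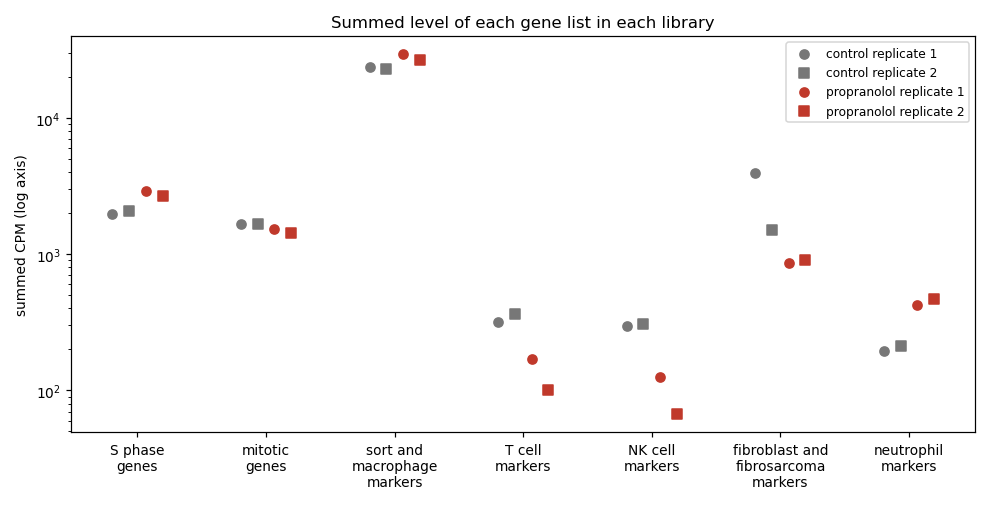
Summed CPM (log axis) of the S phase genes, the mitotic genes and 5 lists of cell type markers in each library, gray for control and red for propranolol, circles for replicate 1 and squares for replicate 2. The propranolol libraries lie above both controls for S phase genes, macrophage and neutrophil markers. They lie below both for mitotic genes, T cell, NK cell, and fibroblast and fibrosarcoma markers. For the last list control replicate 1 is highest at 3932 CPM. The 21 mitotic genes other than Mki67 and Top2a, not drawn apart, sum to between 1067 and 1110 CPM and overlap. In TPM, not drawn, the macrophage marker sums overlap, at 48648 and 48285 in the controls and 50529 and 46373 after propranolol.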

How the data were processed

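The authors deposited raw fragment counts, whole numbers for each gene and library. The submitters' processing notes name STAR 2.7.1a, SAMtools 1.9, featureCounts 1.6.4 and the mm10 genome. Exons were counted for read pairs with no strand option among the parameters stated, which featureCounts takes as unstranded. The release of the GENCODE annotation was not given in the sources used here. Of the columns of samples, 0 were left unused.

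Genes were matched by identifier to GENCODE M21, which named 54079 of 54146. Counts were tested in R 4.3.3 with the edgeR 4.0.16 quasi-likelihood test without covariates, after TMM normalization (factors 1.08 and 1.09 for the control and 0.914 and 0.931 for the propranolol libraries) and filterByExpr with a minimum count of 10. Of 28343 genes with a count, 14688 were tested. The common dispersion was 0.0172. The chi-square statistic divided by its degrees of freedom was 11.8 for the pair of control libraries and 15.1 for the propranolol pair, so no replicates were merged. Deeper libraries give more precise values of low genes. For the GC correction, each library's deviation in log2 CPM was fitted on GC content by a natural spline (5 df) and taken out through offsets. GC content was known for 14681 tested genes. The steps were tested on simulated data.

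The rule for the 40 genes uses no measured value, but they, the other lists and the tests were chosen with earlier results of these data known. Values are given in every library for the 2 genes of highest CPM in each role and for the 3 highest and 3 lowest log2 fold changes, and in the other lists for the genes of highest CPM and for called genes at both ends. Bub1, Cenpf, Mcm7, Rrm2 and other genes outside that rule are named so that each of the 40 is accounted for. Alternatives were the DESeq2 1.42.0 Wald test and size factors, upper-quartile factors, limma 3.58.1 voom, glmTreat, other filters and thresholds, a replicate block and each library left out. A joint correction of GC content and length was added after the data were seen.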

Additional observations from a re-analysis of the deposited data

How the results depend on the processing

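The 14 called genes (5 S phase, 9 mitotic) numbered the same with DESeq2, DESeq2 size factors, upper-quartile factors, limma-voom and the stricter filter. In the same order these called 25.7%, 27.7%, 26.9%, 27.1% and 31.1% of all genes tested, beside 27.8% in the main test. Without a filter they were 7 S phase and 7 mitotic, where 15.8% of 28343 genes were called. With the GC correction, with it and the replicate block, and with GC content and length together, 9, 9 and 9 genes were called, 3, 3 and 3 of them mitotic, beside 1875, 2213 and 1883 of all genes, where the main test called 4084. Under glmTreat against 1.5-fold 6 genes were called (2 mitotic; 1093 of all genes). At a log2 fold change over 1.5 edgeR called 1 gene (1 S phase, 0 mitotic; 728 of all), although 11 mitotic genes passed the adjusted p alone. By adjusted p alone 10 S phase genes were called (6204 of all). Leaving out 1 library, whose remaining partner was taken to vary as the other group does, gave 5 to 8 S phase, 7 to 8 mitotic and 13 to 16 of the 40 genes.

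The S phase median of 0.31 was 0.25 with upper-quartile factors, 0.38 without a filter, 0.38 with the GC correction, 0.38 with that and the replicate block, 0.36 with GC content and length, and 0.22 to 0.47 with a library left out. The mitotic median of -0.0079 was 0.065, 0.11, 0.11 and 0.081 in the same order from no filter on, and -0.067 to 0.079 with a library left out. Upper-quartile factors moved the split of all calls from 1798 higher and 2286 lower to 1417 and 2533, the GC correction to 1154 and 721, and no filter to 2321 and 2145.

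Some signs turned, among them those of Kif11 (-0.61, called) and Top2a (-0.49). With GC content and length, with the GC correction, and with that and the replicate block, log2 fold changes turned to 0.22, 0.24 and 0.23 for Ccna2, to 0.0076, 0.023 and 0.023 for Kif11, and to 0.034, 0.035 and 0.032 for Top2a. Tpx2 turned to 0.0095 with the GC correction and 0.0073 with the block added. Without a filter Ccna2 was at 0.0086 and Ube2c at 0.065, and with limma-voom Ube2c was at 0.0060. With the stricter filter Gmnn was at -0.0090 and Kif23 at -0.0087, and with upper-quartile factors Gmnn was at -0.047, Kif23 at -0.047 and Prc1 at -0.0135. With a library left out, the range was -0.17 to 0.062 for Ccna2, -0.063 to 0.26 for Cdk1, -0.11 to 0.15 for Gmnn, -0.027 to 0.083 for Kif23 and -0.067 to 0.12 for Ube2c. Apart from the GC corrections, whose construction removes the trend, the cause was not tested.

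The replicate numbers are shared by the groups, and whether they mark pairs was not settled. The correlation of replicate deviations between groups was 0.17 over all tested genes and 0.16 over the 40 genes, with 2 pairs. With the replicate block 14 of the 40 genes were called, 5 S phase and 9 mitotic, and 4362 of all genes, beside 4084 in the main test. Ccne2 had the lowest counts of the 40, at 186 and 282 in the controls and 197 and 40 after propranolol. Every call is limited by 2 libraries per group.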
